A study of Homo sapiens with 38 samples.

Results

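The potassium channel genes were taken as the protein-coding genes on the autosomes whose GENCODE symbol starts with KCN, which gave 94 of 19111 promoters. A promoter was the stretch of 1500 bp on either side of the start of the canonical transcript. By symbol, the members fell into 39 voltage-gated subunits, 16 inward rectifiers, 15 two-pore-domain channels, 8 calcium- or sodium-activated channels and 16 auxiliary or regulatory subunits. Protein binding at these promoters was mapped by CUT&RUN, in which an antibody tethers a nuclease to its target in permeabilised cells and the DNA released around that target is sequenced.

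The cells were 2 human non-small cell lung cancer lines. NCI-H661 (H661) expresses DPPA2 and DPPA4 from its own genes and is classed as SMARCA4-deficient, and its parental form was profiled with 1 library each for DPPA2 and for 3 DPPA4 antibodies (N-terminal, ab154642 and central). The shDPPA4 and shDPPA2+4 derivatives of H661 carried doxycycline-inducible hairpins in bulk sorted populations, the double line having been built by adding the DPPA4 hairpin to cells with the DPPA2 hairpin. Each was kept for 7 days in water (control) or in 2 µg/mL doxycycline, with 1 library per antibody: DPPA4, RING1B, PCGF1, MTF2 and EP300 in water, and DPPA4 and RING1B in doxycycline. NCI-H1299 (H1299), which does not normally make either protein, was induced with the same dose for 7 days to express Flag-DPPA2 and V5-DPPA4, and 6 antibodies were used in replicates 1 and 2, giving 12 libraries. The labels do not say whether these replicates were separate cultures, so a p-value over them covers the spread between libraries, which may be technical. All H661 comparisons had 1 library per antibody and arm and carry no test.

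Potassium channels let potassium leave or enter the cell along its gradient and so set the resting potential and end the action potential. Voltage-gated channels open on depolarisation, inward rectifiers and two-pore-domain channels hold the membrane at rest, calcium- and sodium-activated channels answer to ions inside the cell, and auxiliary subunits alter the gating or trafficking of the pore-forming ones. Many of these genes are expressed in excitable cells and kept silent elsewhere. DPPA2 and DPPA4 are partner proteins of the early embryo that bind CpG-rich promoters. RING1B is the catalytic core of Polycomb repressive complex 1 (PRC1), PCGF1 belongs to a variant form of PRC1, MTF2 brings Polycomb repressive complex 2 (PRC2) to unmethylated CpG islands, and EP300 is a histone acetyltransferase of active promoters and enhancers.

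The reads behind the values were unequal. Reads inside enriched domains ran from 48208 in the H1299 Flag monoclonal replicate 2 to 6730407 in the MTF2 library of shDPPA2+4 cells. In H1299, replicate 1 had more KCN promoters than replicate 2 for 6 of 6 antibodies, with 22 to 45 members against 3 to 25. In parental H661, the central DPPA4 antibody gave no MACS2 peak at a KCN promoter and EPIC2 domains at 7. RNA was not measured in these libraries. The study measured DPPA2 and DPPA4 RNA by RT-qPCR and DPPA2 protein by Western blot. Here, promoters with a DPPA4 domain went from 13894 in water to 11028 in doxycycline in shDPPA4 cells. In shDPPA2+4 cells they went from 13110 to 11908. Reads in these domains also went from 6509387 to 1433714 and from 2635933 to 2351547, so depth is not separated from knockdown. These numbers do not show the effect of the DPPA2 hairpin.

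CpG content, which is known to go with binding by several of these proteins, varied widely within the family. The CpG observed/expected ratio over 500 bp on either side of the start had a median of 0.69 in the members and 0.73 in all promoters. It was 0.81 for voltage-gated subunits, 0.77 for two-pore-domain channels, 0.61 for inward rectifiers, 0.58 for calcium- and sodium-activated channels and 0.44 for auxiliary subunits. There were 40 CpG-rich members (GC above 55% and a ratio above 0.75), 28 CpG-poor ones (a ratio below 0.5) and 26 between these limits. That is 42.6%, 29.8% and 27.7% of the members, close to 42.8%, 28.1% and 29.2% of all promoters. Because of this spread, each share of members is given beside a CpG-weighted share, which is the share of the 19017 other promoters after weighting 10 classes of CpG ratio to the members' own mix.

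The sequence upstream of 4 members shows the range the results turn on. KCNH2 makes the rapid delayed rectifier of the heart and was bound by every protein studied in H661. KCNMA1 makes the pore of the large-conductance calcium-activated channel and had neither DPPA2 nor DPPA4 peaks in parental H661 but broad MTF2. KCNK1 makes a two-pore-domain channel and carried MTF2 alone. KCNJ13 makes an inward rectifier of the retinal pigment epithelium and had no domain in any library. Each run is the 250 bases before the RefSeq start in GRCh38.p14, 5′ to 3′ on the gene's own strand, with every CG in capitals. The windows are chr7:150978322-150978571 (minus strand) for KCNH2, chr10:77637809-77638058 (minus) for KCNMA1, chr1:233613856-233614105 (plus) for KCNK1 and chr2:232776566-232776815 (minus) for KCNJ13.
KCNH2: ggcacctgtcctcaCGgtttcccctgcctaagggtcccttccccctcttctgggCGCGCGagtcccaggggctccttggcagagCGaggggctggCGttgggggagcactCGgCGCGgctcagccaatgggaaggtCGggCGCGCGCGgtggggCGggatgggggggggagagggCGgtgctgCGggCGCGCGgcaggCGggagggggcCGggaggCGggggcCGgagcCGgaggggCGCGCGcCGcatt
KCNMA1: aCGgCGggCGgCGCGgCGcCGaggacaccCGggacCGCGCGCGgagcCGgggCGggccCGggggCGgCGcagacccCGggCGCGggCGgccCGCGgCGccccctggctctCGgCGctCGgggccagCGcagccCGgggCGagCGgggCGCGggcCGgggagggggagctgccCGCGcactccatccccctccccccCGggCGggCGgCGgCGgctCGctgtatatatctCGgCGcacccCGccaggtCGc
KCNK1: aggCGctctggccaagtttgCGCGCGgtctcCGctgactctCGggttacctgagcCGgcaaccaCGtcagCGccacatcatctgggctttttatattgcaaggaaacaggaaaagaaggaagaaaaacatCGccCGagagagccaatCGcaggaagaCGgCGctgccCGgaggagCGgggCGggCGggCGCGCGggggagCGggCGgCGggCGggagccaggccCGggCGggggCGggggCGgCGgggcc
KCNJ13: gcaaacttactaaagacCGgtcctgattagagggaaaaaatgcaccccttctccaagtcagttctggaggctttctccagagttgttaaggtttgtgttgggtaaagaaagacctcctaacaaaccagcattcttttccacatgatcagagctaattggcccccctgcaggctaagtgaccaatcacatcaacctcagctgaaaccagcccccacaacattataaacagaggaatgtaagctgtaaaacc
These windows held 29, 46, 30 and 1 CG in that order. KCNK1, with MTF2 and nothing else, was therefore as rich in CG as KCNH2, which bound all the proteins. RefSeq promoter sequence was matched for 70 of the 94 members. Their 250 bases held a median of 15 CG (range 0 to 46), against 11 over all 26246 RefSeq promoter sequences. Those sequences are a different set from the 19111 promoters used elsewhere, and shares of them were not weighted for CpG content. The GC box GGGCGG, searched on both strands and not set against any other motif, was in 38 of the 70 (54.3%) and in 42.4% of all. A match is a description of the letters and not of a bound site.

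In parental H661, both DPPA2 and DPPA4 were found at fewer KCN promoters than at other promoters of like CpG content. DPPA2 MACS2 peaks lay at 31 members (33%, exact 95% interval 23.6 to 43.4), where 47.4% of all promoters and a CpG-weighted 45.7% had one. N-terminal DPPA4 peaks lay at 24 members (25.5%, interval 17.1 to 35.6), beside 47.9% of all and a weighted 46%. Both proteins were at 22 members (23.4%, interval 15.3 to 33.3), beside 40.1% of all and a weighted 38.5%. Neither protein was at 61 members (64.9%), beside 44.8% of all and a weighted 46.7%. These intervals cover only the counting of promoters, and genes are not replicates.

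The lower share held in every channel class and in both of the CpG classes where binding is common. Both proteins were at 14 of 39 voltage-gated subunits (35.9%, weighted share 48.2%), 4 of 15 two-pore-domain channels (26.7%, weighted 43.5%), 2 of 16 inward rectifiers (12.5%, weighted 29.2%), 1 of 8 calcium- and sodium-activated channels (12.5%, weighted 29.8%) and 1 of 16 auxiliary subunits (6.25%, weighted 23.7%). Among CpG-rich promoters the share was 45% of 40 members and 61.9% of other genes. In the intermediate class it was 15.4% of 26 members and 41.9% of others. No member of the 28 CpG-poor ones had both proteins, where 5.29% of other CpG-poor promoters did.

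By MACS2 peaks and the N-terminal DPPA4 antibody, DPPA2 was found without DPPA4 more often than the reverse. The 9 members with DPPA2 alone were KCNA2, KCNA3, KCNF1, KCNH5, KCNIP1, KCNIP2, KCNK7, KCNK9 and KCNN4 (9.57%, weighted 7.21%). DPPA4 alone was at KCNJ2 and KCNK5 (2.13%, weighted 7.58%). These lists depended on the caller, the antibody and the library. EPIC2 domains in parental H661 included N-terminal DPPA4 at KCNA2 and KCNK9, and DPPA2 at KCNK5. KCNH5 had a DPPA4 peak with the ab154642 antibody in parental H661. All 9 members with DPPA2 alone had a DPPA4 domain in water in shDPPA4 cells, whose DPPA4 library was deeper. KCNN4, the intermediate-conductance calcium-activated channel, had a CpG ratio of 0.22, and its DPPA2 peak was 4.53-fold over background. The ab154642 antibody also gave 24 members, 20 of them shared with the N-terminal antibody.

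Peaks at the members that were bound had somewhat lower medians than those at all bound promoters. The best DPPA2 peak of a member had a median fold of 5.66 (range 3.51 to 24.3), beside 6.79 over all bound promoters, and for DPPA4 the median was 6.25 (range 3.47 to 15.9), beside 7.34. The summit lay a median of 350 bp from the start for DPPA2 and 404 bp for DPPA4. The peak covered the start itself at 13 of 31 members for DPPA2 and at 10 of 24 for DPPA4. By the canonical transcript in GENCODE, 16 DPPA2 summits lay upstream of it, 6 in an untranslated part of an exon, 4 in a coding exon and 5 in an intron. For DPPA4 these numbers were 13, 4, 1 and 6.

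KCNJ12, a strong inward rectifier of muscle, had the highest member peaks, 24.3-fold for DPPA2 at chr17:21375279-21378305 and 15.9-fold for DPPA4 at chr17:21375518-21376750, both covering its start. KCNJ18 is a near-identical copy of KCNJ12, so reads from these 2 genes could have been split or misplaced. KCNH2 followed with 14.1-fold for DPPA2 at chr7:150976988-150978047 and 14.3-fold for DPPA4 at chr7:150977874-150979015. Its DPPA2 summit was in an intron 1166 bp downstream of the start and its DPPA4 summit 285 bp upstream, just beyond the printed window. KCNG3, a modifier subunit with no current of its own, had a DPPA2 peak of 11.9-fold at chr2:42492147-42495414 and a DPPA4 peak of 13.4-fold at chr2:42492185-42495117. KCNC4, a voltage-gated subunit, had 7.89-fold and 14-fold. Further down the ranking, KCNT1, a sodium-activated channel, had 9.06-fold and 8.25-fold. KCNG1 had 10.6-fold and 7.03-fold, and KCNH1 had 5.66-fold and 7.28-fold.

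Many CpG-rich members had neither a DPPA2 nor an N-terminal DPPA4 MACS2 peak in parental H661. There were 18 CpG-rich members with neither protein (45% of 40, beside 20.2% of other CpG-rich promoters). The 8 with the highest CpG ratio, from 1.00 to 0.88, were KCNJ4, KCNMA1, KCNG2, KCNS2, KCNK10, KCNS3, KCNK3 and KCND3. They include inward, two-pore-domain and voltage-gated channels and the pore of the large-conductance channel. All of these 8 but KCNK10 had a DPPA4 domain in water in shDPPA4 or shDPPA2+4 cells. KCNJ4 and KCNK3 also had a peak with the ab154642 antibody in parental H661.

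In H1299, where both proteins were introduced, few KCN promoters carried them. By the DPPA2 and N-terminal DPPA4 antibodies, both proteins in both replicates were found at 10 members (10.6%, interval 5.22 to 18.7). This stood beside 32.2% of all promoters and a weighted 30.6%. The other 4 antibodies were not used for this count. Replicate 1 alone gave 37 members (39.4%, weighted 60%) and replicate 2 alone gave 10 (10.6%, weighted 30.2%), so replicate 2 set the number, while the gap to the weighted share was −20.7 points in replicate 1 and −19.6 in replicate 2. With MACS2 peaks 2 members were called and the gap was −1.55 points. The 10 included KCNG3, KCNH5, KCNH3, KCNC4, KCNQ5 and KCNV1 among voltage-gated subunits, the inward rectifiers KCNJ12 and KCNJ2, and KCNMB4, an auxiliary subunit of the large-conductance channel. None of the 15 two-pore-domain channels was among them, where the weighted share was 35.4%.

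KCNG3 had log2 fold values over IgG of 5.29 and 3.99 for DPPA2 in replicates 1 and 2. It and KCNH5 had a domain in all 12 H1299 libraries, and 10 members had one in at least 10 (10.6%, all promoters 36.9%, weighted 35%). At the other end, 41 members had a domain in no H1299 library (43.6%, all 30.6%, weighted 32.5%). KCNV1, a silent subunit, was the only member with both proteins in both H1299 replicates and neither in parental H661, at log2 fold values of 1.93 and 1.08 for DPPA2.

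The members of the lines overlapped in part. Of the 22 H661 members with both proteins, 7 were also called in both H1299 replicates (31.8% of the 22 and 70% of the 10). Over all promoters the shared shares were 60.6% and 75.5%. In H1299 replicate 1 alone, 21 of the 22 were called (95.5%, beside 94.2% of all promoters).

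Each antibody was then set against its own CpG-weighted share. The gap was −18.5 ± 9.1 percentage points (SD, n = 6) for libraries against DPPA2 (DPPA2 and both Flag antibodies) and −24.2 ± 6.18 (SD, n = 6) for libraries against DPPA4 (N-terminal, ab154642 and V5). The difference of 5.67 points was within the spread between libraries (two-sided exact permutation test over 924 arrangements, p = 0.247, adjusted p = 0.494 over 2 comparisons; the smallest p possible is 0.00216). The share of members itself was 24.5% ± 15.7 and 29.3% ± 14.5, a difference of −4.79 points (exact permutation p = 0.6, adjusted p = 0.6). The gap was negative in 12 of 12 libraries. Each n counts replicates 1 and 2 of the same antibodies. A negative gap cannot be larger than the weighted share, which was 5.27% in the shallow Flag monoclonal replicate 2 (gap −2.07 points).

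In the water arms, MTF2 was found at more KCN promoters, and EP300 at fewer, than at other promoters of like CpG content. MTF2 domains lay at 69 members in shDPPA4 cells (73.4%, interval 63.3 to 82, weighted 59.7%), where all promoters had 62%. In shDPPA2+4 cells they lay at 68 (72.3%, interval 62.2 to 81.1, weighted 60.2%), where all had 62.6%. EP300 went the other way, with 16 members in shDPPA4 cells (17%, interval 10.1 to 26.2, weighted 48.8%), beside 51% of all. In shDPPA2+4 cells EP300 was at 19 members (20.2%, interval 12.6 to 29.8, weighted 51.1%), beside 53.4% of all.

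The PRC1 proteins lay below the weighted share. RING1B was at 47 members in shDPPA4 cells (50%, interval 39.5 to 60.5, weighted 62.1%), beside 64.6% of all, and at 43 in shDPPA2+4 cells (45.7%, interval 35.4 to 56.3, weighted 58.2%), beside 60.8%. PCGF1 was at 13 members (13.8%, interval 7.57 to 22.5, weighted 24.9%), beside 26.4% of all, and at 18 (19.1%, interval 11.8 to 28.6, weighted 23.4%), beside 24.9%. The mean gap over both lines was −12.3 points for RING1B and −7.69 for PCGF1, and −4.76 and −4.02 with a log2 fold limit of 2. The weighted PCGF1 share lay inside the interval in the double line and outside it in the single line. DPPA4, in these deeper libraries, was at 56 members in shDPPA4 cells (59.6%, weighted 71.4%), beside 72.7% of all, and at 47 in shDPPA2+4 cells (50%, weighted 66.7%), beside 68.6%. Of the 22 members with both DPPA2 and DPPA4 in parental H661, 22 and 21 had a DPPA4 domain here.

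The lines gave nearly the same members for MTF2. Domains in both lines were at 68 members for MTF2 (72.3%, weighted 54.6%, all promoters 56.9%) and at 41 for RING1B (43.6%, weighted 55.8%, all 58.5%). For PCGF1 this held for 8 members (8.51%, weighted 15.5%, all 16.5%) and for EP300 for 12 (12.8%, weighted 44.3%, all 46.5%). By class, MTF2 in both lines was at 35 of 39 voltage-gated subunits (89.7%, weighted 66.2%), 12 of 15 two-pore-domain channels (80%, weighted 60.6%), 10 of 16 inward rectifiers (62.5%, weighted 43.7%), 4 of 8 calcium- and sodium-activated channels (50%, weighted 44.4%) and 7 of 16 auxiliary subunits (43.8%, weighted 36.5%). EP300 in both lines was at 7, 3, 2, 0 and 0 members of these classes in that order, beside weighted shares of 55.5%, 49%, 34.3%, 35.3% and 27%.

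MTF2 lay above the share of other promoters in each CpG class. In both lines it was at 38 of 40 CpG-rich members (95%, other CpG-rich promoters 81.6%), 21 of 26 intermediate ones (80.8%, others 61.7%) and 9 of 28 CpG-poor ones (32.1%, others 14.1%). EP300 was at 9 of 40 CpG-rich members (22.5%, others 68.7%), 3 of 26 intermediate ones (11.5%, others 54.2%) and none of the CpG-poor ones (others 5.19%).

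Combinations of these proteins were then counted from EPIC2 domains. RING1B and MTF2 in both lines with EP300 in neither were found at 20 members (21.3%, interval 13.5 to 30.9), beside 6.3% of all promoters and a weighted 6.12%. MTF2 in both lines with RING1B in neither was found at 21 members (22.3%, interval 14.4 to 32.1), beside 5.27% of all and a weighted 5.48%. Of these 21, 5 were CpG-rich, 9 intermediate and 7 CpG-poor. Some of the 21 had a RING1B MACS2 peak in water in shDPPA2+4 cells, among them KCNF1 (8.65-fold), KCNIP1 (7.48-fold) and KCNQ3 (5.62-fold). In that library MACS2 called RING1B at 50 members and EPIC2 at 43. The combinations were not recounted with MACS2 peaks. All 12 members with EP300 in both lines also had RING1B and MTF2 in both, and they included KCNC4, KCNH1, KCNG3, KCNK12, KCNK5, KCNH2, KCNJ11, KCNH3, KCNJ2, KCNK15 and KCNG1. None of the 4 proteins was found in either line at 24 members (25.5%, weighted 26.6%, all 24.6%), so the share without any of them was near that of other promoters. No EPIC2 domain was called in any of the 30 libraries at 12 members (12.8%, weighted 17%, all 16.3%), including KCNJ13, KCNE1 and 2 further KCNE subunits.

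EP300 was called at more KCN promoters where DPPA2 and DPPA4 peaks were called in parental H661, but still below the weighted share. Of the 22 members with both DPPA2 and DPPA4 in parental H661, 9 had EP300 in both lines (40.9%), where the weighted share of other DPPA2/4 promoters was 79.5%. MTF2 was at 21 of the 22 (95.5%, weighted 79.1%), RING1B at 19 (86.4%, weighted 91%) and PCGF1 at 6 (27.3%, weighted 34.6%). The 61 members with neither had no DPPA2 or N-terminal DPPA4 MACS2 peak in parental H661. Of these, MTF2 was at 39 (63.9%, weighted 42.8%), RING1B at 16 (26.2%, weighted 31.4%), EP300 at 1 (1.64%, weighted 18.2%) and PCGF1 at none (weighted 2.39%). That 1 member was KCNK15, named after its values were seen. It did have a DPPA4 domain in water in both hairpin lines and an ab154642 peak in parental H661. Many others also had DPPA4 there. Outside the 22, 34 members had a DPPA4 domain in water in shDPPA4 cells and 26 in shDPPA2+4 cells, members with 1 protein in parental H661 included. Having neither peak in parental H661 is therefore not absence of DPPA4 in the hairpin lines.

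MTF2 covered long stretches at KCN promoters. The domains at a member's promoter added up to a median of 2.5 kb in shDPPA4 cells and 3.1 kb in shDPPA2+4 cells, beside 1.1 and 1.2 kb at other promoters with MTF2. For RING1B the medians were 1.2 and 1.3 kb, beside 1.0 and 0.8 kb. The longest MTF2 coverage was at KCNQ3, of the neuronal M current, at 11.3 and 15.1 kb (chosen after its values were seen). Read density within the domains differed less, with MTF2 medians of 55.5 and 80.7 reads per kb at members and 60.6 and 76.2 at other promoters.

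Among members with both RING1B and MTF2, KCNK9, a two-pore-domain channel that sets the resting potential, had the highest MTF2 density. It reached 193 and 268 reads per kb in shDPPA4 and shDPPA2+4 cells. KCNA2, an axonal delayed rectifier, had 164 and 264, and KCNMA1 had 145 and 233. KCNQ5 had 128 and 195, and KCNK12 had 140 and 168. KCND3, of the transient outward current, had 129 and 178, and KCNN2, a small-conductance calcium-activated channel, had 126 and 167. KCNA3, the delayed rectifier of T lymphocytes, completed the 8 named here with 174 in shDPPA2+4 cells. All 8 had higher values in shDPPA2+4 cells, whose MTF2 library was also the deeper one, so the lines are set side by side and not compared.

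At KCNMA1, whose printed window held 46 CG, MTF2 domains covered 7.4 and 7.6 kb with 1073 and 1769 reads against 9 and 19 reads of IgG. RING1B had 21 and 61 reads there over 0.7 and 1.8 kb, and EP300 had no domain in either line. At KCNK1, MTF2 covered 3.9 and 5.5 kb with 381 and 653 reads against 5 and 10 of IgG, and no other protein had a domain in any library. KCNA1, an axonal delayed rectifier, had MTF2 log2 fold values of 5.40 and 5.16 and a RING1B domain of 15 reads in shDPPA2+4 cells but none in water-treated shDPPA4 cells. KCNH2 had MTF2 with 182 and 243 reads, RING1B with 94 and 89, PCGF1 with 20 and 36, and EP300 with 44 and 81. These 4 promoters therefore ranged from MTF2 alone to all of the proteins, at CpG ratios between 0.83 and 0.98.

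**Figure D1:**
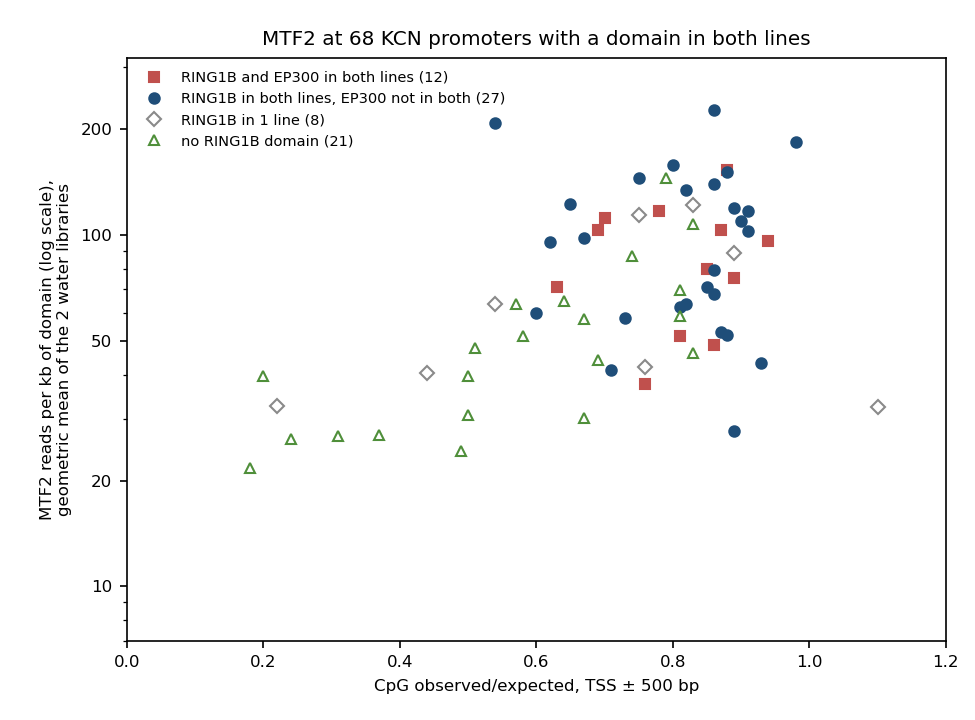
MTF2 reads per kb of domain (vertical, log scale, geometric mean of both water libraries) against the CpG observed/expected ratio (horizontal) for the 68 members with MTF2 in both lines, with symbols for the other proteins present. Members with no RING1B domain (triangles, 21) reach down to 21.7 reads per kb and members with RING1B and EP300 (squares, 12) lie between 37.7 and 153.

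MTF2 density was lower where no RING1B EPIC2 domain was called. The median was 46.1 reads per kb (range 21.7 to 145) at the 21 members with no RING1B domain, whose median CpG ratio was 0.58. It was 88.2 (range 37.7 to 153) at the 12 with RING1B and EP300 and 98.1 (range 27.7 to 227) at the 27 with RING1B and EP300 not in both lines, at CpG ratios of 0.83 and 0.86. The ranges overlapped, and the part of CpG content in this difference was not tested.

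PCGF1 libraries were shallow, with 175347 and 183238 reads in domains. The 8 members with PCGF1 in both lines included KCNK5, KCNG1, KCNK6, KCNH3, KCNH2, KCNJ12 and KCNA3. KCNK5, an acid-sensitive two-pore-domain channel of epithelia, had the highest mean density at 40.2 and 32.6 reads per kb, from domains of 8 and 13 reads. No CpG-poor or intermediate member was among them.

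Fewer KCN promoters had a DPPA4 domain with doxycycline than with water in both hairpin lines. In shDPPA4 cells they went from 56 to 22, so 34 were no longer called (60.7%), beside 20.8% of all promoters and a CpG-weighted 24.3%. None was gained, where 0.46% of all promoters without a domain in water gained one. In shDPPA2+4 cells they went from 47 to 28, so 19 were no longer called (40.4%), beside 9.75% of all and a CpG-weighted 9.99%, and none was gained (all promoters 1.27%).

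Members started from lower DPPA4 density, which moved with these losses. Density here is reads per kb of domain divided by the size of the library relative to the IgG library that both arms share. Its median in water was 15.1 at members and 30.8 at other promoters in shDPPA4 cells, and 22.7 and 42.6 in shDPPA2+4 cells. Members that kept a domain had medians of 28.4 and 28.8, and those that lost it had 11.2 and 16.5. With other promoters weighted to the members' water density, a comparison chosen after seeing the data, the shares lost were 48.1% and 26.3%, beside the members' 60.7% and 40.4%. Reads in DPPA4 domains went from 6509387 to 1433714 in shDPPA4 cells and from 2635933 to 2351547 in shDPPA2+4 cells, and the part of depth in the loss of calls was not tested. In a bulk population, fewer bound cells and less binding per cell cannot be told apart.

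Where a domain was called in both arms, median DPPA4 density fell with doxycycline by about as much at members as at all promoters. This density covers only called domains, and those at these members were shorter with doxycycline. Their median coverage went from 3.2 to 1.2 kb in shDPPA4 cells and from 2.6 to 1.4 kb in shDPPA2+4 cells. Promoters that lost their domain are left out, and members lost theirs more often. The median log2 ratio of doxycycline over water was −0.40 at 22 members in shDPPA4 cells, beside −0.37 over all promoters with a domain in both arms. In shDPPA2+4 cells it was −0.72 at 28 members, beside −0.62. Density was lower by more than 2-fold at 1 of the 22 (all promoters 8.24%) and at 4 of the 28 (all 19.3%).

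KCNG3 had the lowest mean ratio. Its DPPA4 density went from 74.5 to 36.6 in shDPPA4 cells and from 97.9 to 34.5 in shDPPA2+4 cells, which are log2 changes of −1.02 and −1.50. KCNG1, another modifier subunit, went from 23.5 to 20.6 and from 45.7 to 9.77 (−0.19 and −2.23). KCNH5, of the ether-à-go-go family, went from 35.7 to 22.1 and from 49.2 to 15.5 (−0.69 and −1.66). At KCNQ1, of the slow delayed rectifier of the heart, the changes were −0.68 and −0.87, and at KCNC4 they were −0.73 and −0.75. All 5 had lower density with doxycycline in both lines.

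KCNH2 stood at the other end, going from 33.1 to 39.7 and from 55.9 to 59.3 (0.26 and 0.08). Its density was thus higher with doxycycline in both lines, by less than 2-fold, but over shorter domains. These went from 8.6 to 2.4 kb in shDPPA4 cells and from 6.9 to 3.1 kb in shDPPA2+4 cells. The MACS2 fold went the other way, from 40.5 to 18.5 and from 18.4 to 15.8. KCNK5 changed by −0.25 and −0.19. KCNK15 and KCNT1 changed in opposite directions in the lines, at −0.38 and 0.22 and at 0.62 and −0.86.

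RING1B values differed between the lines, a difference that was not tested. In shDPPA4 cells it went from 47 to 57 members with doxycycline, none being lost (all promoters 3.85%) and 10 gained (12.8% of all promoters without a domain in water). All 10 already had MTF2 in water, a comparison chosen after the values were seen. RING1B was called with doxycycline at 10 of the 23 members with MTF2 and no RING1B in water (43.5%, all such promoters 39.8%, weighted 43.1%), and at none of the 24 with neither (all such promoters 5.84%). In shDPPA2+4 cells this was 5 of 27 (18.5%, all 16.7%, weighted 17.5%) and none of 24 (all 1.98%). The members with MTF2 thus gained RING1B about as often as other promoters with MTF2. In shDPPA2+4 cells it went from 43 to 41, with 7 lost (16.3%, all 22.7%) and 5 gained (all 5.89%). Gains are of EPIC2 domains, and KCNF1, KCNQ3 and KCNK3 among these 5 already had a RING1B MACS2 peak in water. The median log2 ratio was −0.08 at 47 members in shDPPA4 cells, beside −0.28 over all promoters, and −0.71 at 36 members in shDPPA2+4 cells, beside −0.70. Density was lower by more than 2-fold at 1 of 47 members (all 4.81%) and at 6 of 36 (all 22.9%). Reads in RING1B domains went from 1510442 to 2418785 in shDPPA4 cells and from 846891 to 838490 in shDPPA2+4 cells, and the part of this in the number of domains was not tested.

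Among the members with the lowest mean ratios for RING1B, KCNH3 went from 24 to 22.4 in shDPPA4 cells and from 49.4 to 17.1 in shDPPA2+4 cells (log2 −0.10 and −1.53). KCNA6 changed by −0.51 and −1.02 and KCNC1 by −0.63 and −0.79, and KCNA3 was also lower in both lines. The highest mean ratios included KCNK10 (0.30 and −0.09), KCNS3 (0.11 and 0.05), KCNJ8 (−0.07 and 0.22), KCND2 (0.75 and −0.65) and KCND3 (0.32 and −0.38).

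Over the 30 libraries, a member had EPIC2 domains in a median of 7.5. There were 43 members with domains in 1 to 10 libraries, 24 in 11 to 20 and 15 in 21 to 30. KCNG3 led with 29, missing only PCGF1 in shDPPA4 cells, and KCNJ12 had 28, KCNC4 and KCNH3 had 27, and KCNG1 and KCNH5 had 26. KCN promoters rarely lay close to the start of another gene: 2 members (2.13%) had another protein-coding start, on either strand, within the window, against 15.2% of other promoters.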

How the data were processed

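CUT&RUN libraries (38, of which 8 were IgG controls) were used as processed by the authors, who called regions in each of the other 30 separately. The submitters' processing notes list Trim Galore 0.6.6, BWA 0.7.13, SAMtools 1.9, Picard 2.6.0, MACS2 2.27.1 and deepTools 3.5.0, with the build hg38. EPIC2 domains were called by the authors in bins of 100 bp against IgG, and the deposited files hold raw read counts of library and IgG for each domain. They also hold the authors' p-value and FDR, the log2 fold over IgG scaled for library size, and a score that the deposited files give as that log2 value times 100. The deposited MACS2 peaks carry a fold enrichment (a ratio) over the IgG background, −log10 p and q, and an integer score made from q. Total read numbers are not given in the sources used here, so depth is given as reads in domains. Intervals cover counting error only.

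Regions with FDR below 0.05 and log2 fold above 1 (MACS2 fold above 2) were kept and joined to canonical transcript starts of GENCODE 44. Parental H661 was read from the MACS2 peaks, and all other cells from the EPIC2 domains. An H1299 region had to share at least 25% of the shorter region in both replicates. The study's exclusion of blacklisted regions was not applied. Each member was compared with other promoters in deciles of CpG ratio. Library size relative to IgG was solved from the deposited log2 folds and counts, and doxycycline and water arms shared their IgG counts. The permutation test was tested on simulated data.

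Members and lists were chosen with earlier results of these data known. Genes were named by rank: the top 10 with both DPPA2 and DPPA4 in H661 by the worse rank, the 8 CpG-richest with neither, CpG-poor members with both (there were none), the top 8 by MTF2 and by PCGF1 density, the 5 lowest and 5 highest doxycycline ratios for DPPA4 and RING1B, members with both proteins in H1299, and a fixed list of 12 of known role. Some of these members are counted but not reported by name here. Alternatives varied caller, fold limit, window, CpG classes and replicates. Python 3.11.15, numpy 2.4.6, pandas 2.3.3, SciPy 1.17.1 and matplotlib 3.10.9 were used.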

Additional observations from a re-analysis of the deposited data

Results flagged for a closer look

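Among the results checked, 7 had a change with doxycycline in opposite directions in the 2 hairpin lines. Each arm had 1 library, so these differences were not tested. The number of KCN promoters with RING1B changed by 10 in shDPPA4 cells and by −2 in shDPPA2+4 cells. The other 6 were single members, given as log2 density of doxycycline over water in shDPPA4 and then shDPPA2+4 cells. For DPPA4 they were KCNK15 (−0.38 and 0.22) and KCNT1 (0.62 and −0.86). For RING1B they were KCNK10 (0.30 and −0.09), KCNJ8 (−0.07 and 0.22), KCND2 (0.75 and −0.65) and KCND3 (0.32 and −0.38). These 6 came from the members named for the lowest and highest mean ratios, and only those members were checked. Others also differed for RING1B, such as KCNS2 (0.66 and −1.01) and KCNK9 (0.33 and −0.87). The share of all members or all promoters that differed was not counted. The KCNT1 DPPA4 domain held 11 reads with doxycycline in shDPPA4 cells.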

How the results depend on the processing

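Of 73 alternatives over 11 results, 59 stayed within 1.5 times the reported value, 11 kept its direction but moved further and 3 turned it. They include 12 added after seeing the data (leaving out promoters shared with another gene, and leaving out KCNJ12 and KCNJ18). The gap in parental H661, reported as −15.1 points, was −5.36 with the central DPPA4 antibody, which had no member. In H1299 the gap to the CpG-weighted share, reported as −20 points, was −1.55 with MACS2 peaks (2 members) and −11.3 with a log2 fold limit of 2 (4 members). It ran from −20.7 to −19.6 with 1 replicate left out. With a log2 fold limit of 2 the mean gap over the water arms was 25.5 points for MTF2 (reported 12.9) and −21.4 for EP300 (reported −31.4). The RING1B gap (reported −12.3) was −6.94 with MACS2 peaks and −4.76 with a log2 fold limit of 2. The PCGF1 gap (reported −7.69) was −2.54 and −4.02 with these, and −4.27 in shDPPA2+4 cells alone. The median RING1B change in shDPPA4 cells was 0.11 when the log2 fold of the strongest domain replaced density (reported −0.08). The cause of these shifts was not tested. For DPPA2-directed against DPPA4-directed libraries (reported 5.67 points), leaving out 1 replicate gave −0.291 to 11.6 points (exact permutation p of 1 and 0.1, the smallest possible being 0.1). Without replicate 2 the sign was therefore reversed. The share of members alone gave −4.79 points, and leaving out the Flag monoclonal antibody gave 2.39. With the replicate block the difference was 5.67 points (exact permutation p = 0.26 over 400 arrangements, smallest possible 0.005).

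With 1 library per antibody and arm in H661, differences between arms and lines carry no test. Domain calls depend on depth: the PCGF1 libraries held the fewest reads in domains of the water arms, and a missing domain means that none was called at this depth.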

Other observations

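Other ion channel families, chosen by symbol, are given by counts only. Both DPPA2 and DPPA4 were at 4 of 14 sodium channel genes (28.6%, CpG-weighted share 26.9%), 7 of 25 calcium channel subunits (28%, weighted 46.5%), 2 of 9 cyclic nucleotide-gated and HCN channels (22.2%, weighted 36.1%) and 4 of 21 TRP channels (19%, weighted 26.6%) in parental H661. MTF2 in shDPPA4 water cells was at 7 of 14, 19 of 25, 5 of 9 and 10 of 21 of these genes, which are 50%, 76%, 55.6% and 47.6%, beside weighted shares of 46.2%, 70.1%, 56.9% and 45.3%. In shDPPA2+4 water cells it was at 9, 19, 6 and 14 of them, which are 64.3%, 76%, 66.7% and 66.7%, beside weighted shares of 47%, 70.5%, 58.2% and 45.9%. EP300 in shDPPA4 water cells was at 4 of 14 (28.6%, weighted 35%), 9 of 25 (36%, weighted 59.3%), 1 of 9 (11.1%, weighted 47.3%) and 4 of 21 (19%, weighted 34.4%). In shDPPA2+4 water cells it was at 6 of 14 (42.9%, weighted 37%), 7 of 25 (28%, weighted 62.1%), 4 of 9 (44.4%, weighted 49.3%) and 5 of 21 (23.8%, weighted 36.2%). The lines therefore put MTF2 at cyclic nucleotide-gated channels, and EP300 at sodium channels, on opposite sides of the weighted share. The families are small and were not compared by a test.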
